A study of Mus musculus with 5 samples.

Results

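The ATP-binding cassette (ABC) genes of mouse embryonic fibroblasts were described across cultures labelled MDR2-/- and MDR2+/+. They were taken as all genes of the array whose symbol starts with Abca, Abcb, Abcc, Abcd, Abce, Abcf or Abcg followed by a digit, among the probe sets of the category for genes. This gave 52 probe sets for 50 genes out of 21585 genes tested, with the probe set of highest mean signal over the arrays standing for each gene. Of the 50 genes, 16 belonged to subfamily A, 10 to B, 10 to C, 4 to D, 1 to E, 3 to F and 6 to G. Mdr2 is the older name of Abcb4, so the gene named in the genotype is itself a member.

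ABC proteins bind and hydrolyse ATP at a pair of nucleotide-binding domains. In most subfamilies these domains drive the movement of lipids, bile salts, peptides, drugs or conjugates across a membrane, while the E and F proteins have no membrane domain and act on ribosomes and translation. Abcb4 moves phosphatidylcholine into bile in the liver. Its close relatives Abcb1a and Abcb1b, which lie beside it on chromosome 5, encode the mouse P-glycoproteins that pump many drugs out of cells.

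The study used fibroblasts grown from littermate embryos and passaged on a 3T3 schedule, in which cells are replated at fixed intervals until they grow as a line. RNA was taken at passage 40 and hybridised to 5 Affymetrix arrays. The group labelled MDR2-/- had 3 arrays (replicates 1, 2 and 3) and the group labelled MDR2+/+ had 2 (replicates 2 and 3), and the groups share the passage and the schedule. The sources used here give neither the disrupted part of the gene nor the mouse strain, and do not say if replicates came from separate cultures or embryos. The p-values therefore measure only the spread between these arrays, which may be technical. In bulk RNA of this kind, fewer cells that carry a transcript and less transcript per cell cannot be told apart.

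Of 12 fibroblast markers, 10 were above background on all 5 arrays. The exceptions were Lum, above it on none, and Thy1, above it on the 3 arrays labelled knockout alone. None of 10 hepatocyte markers was above background on any array. Sex-linked transcripts differed too, with Xist between 7.32 and 7.68 on the log2 scale on the arrays labelled knockout against 2.98 and 3.17 in wild type, and Ddx3y lower there (limma adjusted p = 0.0250 and 0.0266). No gene of the array passed with the replicate block, or without replicate 1 or replicate 3 labelled knockout, so these calls are lost there. Genotype label and sex-linked expression cannot be told apart in any difference below. The log2 of the summed signal of 12 fibroblast markers lay between 13.54 and 13.77 on the arrays labelled knockout against 13.94 and 14.02 in wild type. These markers went both ways, with 2 (Thy1 and Lum) higher on every array labelled knockout and 6 lower. Among the lower ones, Dcn was at 7.611 on replicate 2 labelled knockout and between 10.245 and 11.449 on the other arrays. The same sum over 5 adipocyte markers lay between 6.50 and 7.42 on the arrays labelled knockout against 5.93 and 5.99 in wild type, with Adipoq at 2.37 on every array. Of these 5 the groups were apart for Fabp4 alone, at 6.905, 5.488 and 5.565 against 3.834 and 4.181, which was above background on 1 array, and the other adipocyte markers were above it on none. That of 6 epithelial markers lay between 6.71 and 7.08 against 6.42 and 6.61, with all 6 below background, Epcam at 2.96 on every array and the groups apart for Cdh1 alone. That of 5 endothelial markers lay between 5.18 and 5.20 against 5.12 and 5.17, all 5 below background. The part of these markers in the differences between ABC genes was not tested.

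The promoters of 5 members are shown because the results turn on these genes: Abcb4 is the gene of the genotype label, Abcb1a and Abcb1b are its neighbours, and Abca5 and Abca3 are members of one subfamily with opposite differences. Each window runs from 250 bases before to 50 bases after a RefSeq transcription start of mouse build GRCm38.p6, 5′ to 3′ on the strand of the gene. RefSeq windows were matched by symbol for 38 of the 50 members. Capitals mark matches on either strand. The motifs searched were the GC box with the letters GGGCGG, the CCAAT box with the letters CCAAT, the TATA box with the letters TATAAA and the core of the antioxidant response element with the letters TGACNNNGC. No marked matches overlap.

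Abcb4, chr5:8893471-8893770, plus strand: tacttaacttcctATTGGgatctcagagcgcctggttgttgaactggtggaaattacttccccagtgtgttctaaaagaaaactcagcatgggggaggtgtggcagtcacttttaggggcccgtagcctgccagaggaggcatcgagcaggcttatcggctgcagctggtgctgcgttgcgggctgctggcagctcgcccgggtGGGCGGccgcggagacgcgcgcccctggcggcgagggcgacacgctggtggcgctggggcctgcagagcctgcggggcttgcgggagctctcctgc

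Abcb1a, chr5:8566841-8567140, plus strand: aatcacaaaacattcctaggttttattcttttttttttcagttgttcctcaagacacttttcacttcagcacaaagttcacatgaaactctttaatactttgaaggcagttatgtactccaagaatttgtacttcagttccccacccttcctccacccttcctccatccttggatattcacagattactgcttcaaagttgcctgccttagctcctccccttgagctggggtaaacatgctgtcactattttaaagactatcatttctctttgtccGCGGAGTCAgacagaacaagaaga

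Abcb1b, chr5:8797897-8798196, plus strand: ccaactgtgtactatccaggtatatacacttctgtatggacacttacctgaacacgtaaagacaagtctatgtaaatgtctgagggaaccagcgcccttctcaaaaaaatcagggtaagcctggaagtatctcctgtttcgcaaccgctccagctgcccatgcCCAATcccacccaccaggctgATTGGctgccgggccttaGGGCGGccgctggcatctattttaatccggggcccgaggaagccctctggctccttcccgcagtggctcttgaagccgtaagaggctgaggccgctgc

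Abca5, chr11:110337667-110337966, minus strand: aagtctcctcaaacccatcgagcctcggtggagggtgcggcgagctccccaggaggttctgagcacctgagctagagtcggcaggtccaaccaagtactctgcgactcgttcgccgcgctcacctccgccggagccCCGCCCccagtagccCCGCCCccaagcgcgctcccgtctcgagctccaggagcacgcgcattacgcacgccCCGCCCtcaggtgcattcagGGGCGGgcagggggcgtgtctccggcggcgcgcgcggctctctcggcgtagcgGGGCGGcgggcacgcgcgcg

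Abca3, chr17:24351773-24352072, plus strand: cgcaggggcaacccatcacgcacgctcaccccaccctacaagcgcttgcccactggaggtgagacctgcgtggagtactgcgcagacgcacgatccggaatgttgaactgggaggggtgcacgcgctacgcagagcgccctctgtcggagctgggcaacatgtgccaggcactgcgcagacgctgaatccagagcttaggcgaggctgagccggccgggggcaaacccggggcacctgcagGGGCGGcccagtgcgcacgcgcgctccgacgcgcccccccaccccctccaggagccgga

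The Abcb4 window held 1 GC box, whose first base lay at -46 from the start, and 1 CCAAT box at -237. That of Abcb1b held 1 GC box at -48 and CCAAT boxes at -87 and -66, while that of Abcb1a held neither, with a GC content of 40.3% against 64.0% for Abcb4. The Abcb1a window ends at 8567140, far before the start of 8660077 in the array annotation, which uses another build. The Abcb4 and Abcb1b windows contain their annotated starts. Whether Abcb1a has a nearer promoter with these boxes was not tested. The antioxidant response core was matched once among these 5 windows, at position 27 of Abcb1a. Abca5 had 5 GC boxes and Abca3 had 1. Over all 32851 windows of the same length, 35.7% held the GC box, 37.4% the CCAAT box, 13.6% the TATA box and 12.4% the antioxidant response core. Over the 45 windows of ABC genes the shares were 46.7%, 35.6%, 15.6% and 15.6%. A match is a run of letters, not evidence that a factor binds there.

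Signal was set against 45 antigenomic probe sets, whose probes match no mouse sequence. Their median log2 signal was 2.14 on every array, and their 95th percentile, the threshold called background here, lay between 5.71 and 6.08. Of the 50 ABC genes, 6 were above it on all 5 arrays (12.0%, against 24.4% of all genes), namely Abcc1, Abcd3, Abce1, Abcf1, Abcf2 and Abcf3. A further 2, Abca3 and Abcg2, were above it on both wild-type arrays and on no array labelled knockout, and none showed the reverse. A further 6, among them Abca5, Abcb1b and Abcb4, passed it on some arrays. The other 36 (72.0%, against 64.3% of all genes) passed it on no array. The count on all 5 arrays rests on the threshold: it was 31 at 1 log2 unit over the antigenomic median, and 5 against the highest antigenomic probe set.

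The subfamilies differed in how many members were above background. All 4 genes of subfamilies E and F were above it on all 5 arrays, as was 1 of 4 in D and 1 of 10 in C. In subfamilies A (16 genes), B (10 genes) and G (6 genes) no member was. The plot of members by array shows this division, with most A, B, C and G genes to the left of the background band.

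**Figure D1:**
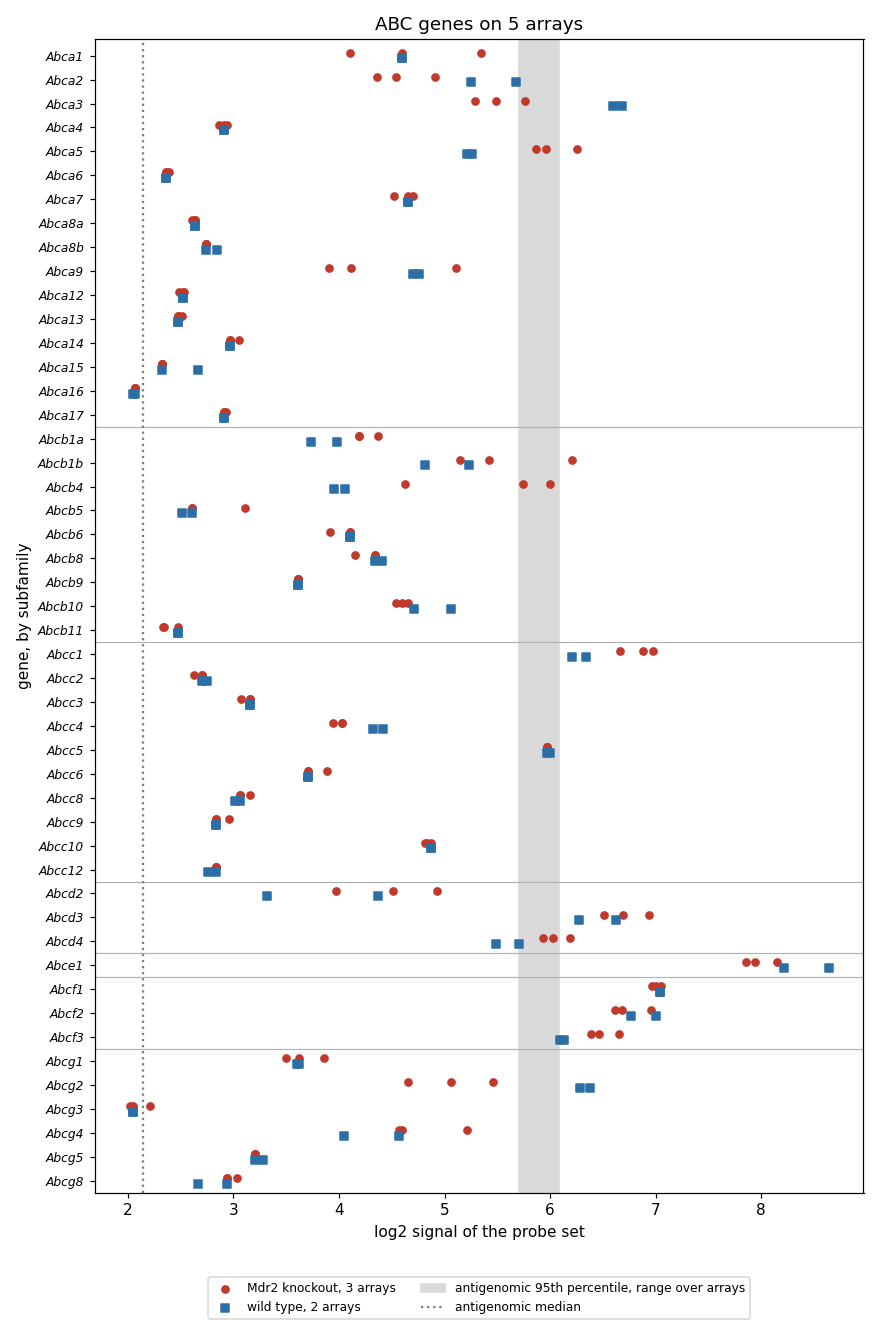
Log2 signal (x axis) of 48 of the ABC genes (y axis, by subfamily) on each array; circles are the 3 arrays labelled knockout, squares the 2 wild-type arrays, the band is the range of the antigenomic 95th percentile over arrays (5.71 to 6.08) and the dotted line the antigenomic median (2.14). Abce1 and the 3 Abcf genes lie to the right of the band on every array, and Abca3 and Abcg2 do so in wild type alone.

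The comparison asked which ABC genes differ between the fibroblasts labelled Mdr2 knockout and wild type. None of the 50 passed limma's test at an adjusted p of 0.05, against 0.301% of all genes tested, and the lowest adjusted p was 0.110, that of Abcc4. At an unadjusted p under 0.05, 6 members lay higher under the knockout label and 4 lay lower (12.0% and 8.0% of members), where 5.36% and 8.30% of all genes did. In 6 genes every array labelled knockout lay above both wild-type arrays and in 6 it lay below them (12.0% each, against 10.6% and 14.4% of all genes). The median log2 difference of the members was -0.0033, beside 0 for all genes. An exact rank test of a single gene cannot give a two-sided p under 0.2 with 3 arrays against 2. None of the differences below passed the adjusted threshold, so they are given as values.

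The signal of Abcb4 was not lower on the arrays named for its loss. Its probe set has 28 probes and is annotated to chr5:8893717-8959226, the length of the gene (mouse build NCBIM37, plus strand). Whether any probe lies in the disrupted part cannot be read from the table. The log2 signal was 6.002, 4.628 and 5.744 on replicates 1, 2 and 3 labelled knockout and 4.054 and 3.949 on wild-type replicates 2 and 3. The groups did not overlap, yet 4 of the 5 values were below the antigenomic 95th percentile of their own array and replicate 1 passed it narrowly, at 6.002 against 5.966. The log2 difference was 1.46 ± 0.50 (SE; 95% interval 0.02 to 2.89; limma adjusted p = 0.357). The loss of the gene can thus be neither seen nor denied from this probe set, and every direction given here is that of the arrays labelled knockout.

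Replicate 2 labelled knockout stood between the other arrays of its label and the wild-type arrays for Abcb4. The 3 values labelled knockout spanned 1.37 log2 units, the widest range of any ABC gene there. Without that replicate the Abcb4 difference was 1.87 (limma adjusted p = 0.0949). Among the 14 ABC genes above background on at least 1 array, 13 had untied values in this group, and replicate 2 lay farthest from the other replicates in 8 of them (61.5%). Over all genes above background on at least 1 array this share was 44.5%. Over all ABC genes, dim ones included, it was 15 of 43 untied (34.9%), beside 36.3% of all genes. The side differed by gene: for Abcb1b it had the highest value of the 3, and for Abcb4 the lowest.

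Abcb1a and Abcb1b share much of their sequence with Abcb4, although the array annotation flags none of the 3 probe sets for cross-hybridisation. Signal that a probe set took from a relative's transcript cannot be told apart here. Abcb1a, at chr5:8660077-8748519, had log2 signals of 4.188, 4.369 and 4.188 on the arrays labelled knockout against 3.982 and 3.738. The groups did not overlap, with all 5 values below background, and the log2 difference was 0.39 ± 0.11 (SE; limma adjusted p = 0.280). Abcb1b, at chr5:8798186-8866308, was at 5.424, 6.206 and 5.148 against 4.811 and 5.231. Its groups overlapped, only the value of replicate 2 labelled knockout was above background, and the log2 difference was 0.57 ± 0.40 (SE; limma adjusted p = 0.554).

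**Figure D2:**
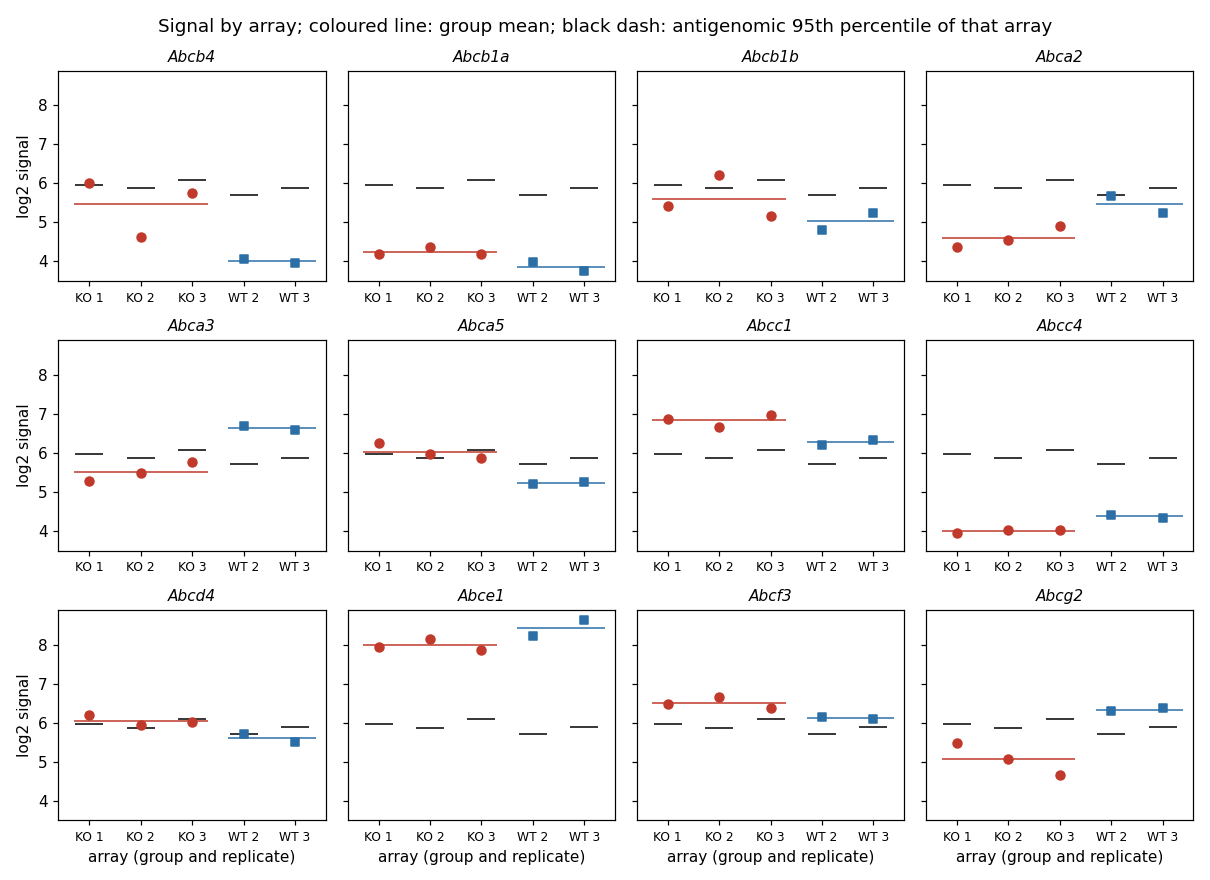
Log2 signal (y axis) of 12 ABC genes on each array (x axis); circles are arrays labelled knockout (KO), squares wild type (WT), coloured lines the group means and black dashes the antigenomic 95th percentile of each array. Abca3 and Abcg2 lie above the dash in wild type alone, and Abcb4 reaches it on replicate 1 labelled knockout.

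The remaining B genes were below background on every array. Abcb10, a mitochondrial inner membrane transporter needed for haem synthesis, was at 4.541, 4.599 and 4.655 on the arrays labelled knockout against 5.060 and 4.711. These groups did not overlap, and the log2 difference was -0.29 ± 0.12 (SE; limma adjusted p = 0.490). Abcb6 and Abcb8, both of mitochondria, differed by -0.06 and -0.10. Abcb11, the bile salt export pump of hepatocytes, lay between 2.33 and 2.47 on all arrays, near the antigenomic median. Abcb9, a lysosomal peptide transporter, had the same value, 3.615, on all 5 arrays. Abcb5 had a difference of 0.22, and its second, dimmer probe set read 2.176 on every array.

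Subfamily A, whose proteins mostly move lipids, held members with differences in both directions. Abca3 loads phospholipid into the lamellar bodies of lung cells. Its log2 signal was 5.286, 5.488 and 5.760 on the arrays labelled knockout against 6.686 and 6.592 in wild type. Every array labelled knockout was lower and below background, while both wild-type arrays were above it. The log2 difference was -1.13 ± 0.16 (SE; 95% interval -1.60 to -0.65; limma adjusted p = 0.134). With the arrays labelled knockout set to their background thresholds, the wild-type mean was 1.59-fold higher. That figure takes no account of spread, and the gene was given it because of these same values.

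Abca2, a transporter of endosomes and lysosomes linked to sphingolipid handling, lay on the same side. It was at 4.362, 4.539 and 4.913 on the arrays labelled knockout against 5.675 and 5.247. No array reached background, and the log2 difference was -0.86 ± 0.24 (SE; limma adjusted p = 0.279).

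Abca5, a transporter of late endosomes and lysosomes, lay on the other side, at 6.258, 5.962 and 5.863 against 5.208 and 5.263. Replicates 1 and 2 labelled knockout were above background and the remaining arrays were not. The log2 difference was 0.79 ± 0.14 (SE; 95% interval 0.38 to 1.20; limma adjusted p = 0.171).

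Abca1, which exports cholesterol and phospholipid to apolipoprotein A1, was at 5.350, 4.107 and 4.598 on the arrays labelled knockout. Both wild-type arrays read 4.598. Its values labelled knockout thus spanned the wild-type level, with a log2 difference of 0.09 ± 0.42 (SE; 95% interval -1.14 to 1.32). Abca9 had a similar spread, at 3.902, 5.113 and 4.113 against 4.704 and 4.758, with the array that was lowest for Abca1 highest here. Abca7, a relative of Abca1, differed by -0.03. The 10 remaining A genes, which include the retinal Abca4, the epidermal Abca12 and the clustered Abca6, Abca8a and Abca8b, lay between 2.05 and 3.05 on all arrays. Their differences ran from -0.17 for Abca15 to 0.03 for Abca14.

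Subfamily C pumps glutathione conjugates, cyclic nucleotides and drugs, and also holds the sulphonylurea receptors of potassium channels. Abcc1, the multidrug resistance-associated pump MRP1, was above background on all 5 arrays. It was at 6.881, 6.662 and 6.976 on the arrays labelled knockout against 6.209 and 6.341. The groups did not overlap, and the log2 difference was 0.56 ± 0.12 (SE; 95% interval 0.22 to 0.91; limma adjusted p = 0.204).

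Abcc4, which exports cyclic AMP and prostaglandins, had the smallest spread against its difference of all members. It was at 3.948, 4.026 and 4.026 against 4.417 and 4.325, lower on every array labelled knockout and below background throughout. The log2 difference was -0.37 ± 0.05 (SE; limma adjusted p = 0.110). It passed on a second quantile normalization (limma adjusted p = 0.0492, with 0.0492 to 0.409 over the alternatives). Abcc5, another exporter of cyclic nucleotides, read 5.972 on 4 arrays and 6.003 on wild-type replicate 2, an interval for the difference of -0.06 to 0.03. Abcc10 lay between 4.82 and 4.87. Abcc2 and Abcc3, the canalicular and basolateral conjugate pumps of hepatocytes, the receptors Abcc8 and Abcc9, and Abcc6 and Abcc12 lay between 2.63 and 3.89. Their differences ran from -0.04 to 0.06.

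The 4 D proteins are half-size transporters, of peroxisomes apart from Abcd4, a lysosomal protein needed for cobalamin release. Abcd4 was at 6.193, 5.931 and 6.026 on the arrays labelled knockout against 5.710 and 5.492. The groups did not overlap, and the log2 difference was 0.45 ± 0.12 (SE; limma adjusted p = 0.257). Abcd3, the peroxisomal transporter of branched-chain acyl-CoA, was above background on all 5 arrays and had a difference of 0.26 ± 0.19 (SE) with overlapping groups. Abcd2, another peroxisomal transporter, spread within both groups, from 3.975 to 4.926 on the arrays labelled knockout and from 3.321 to 4.366 in wild type, with a difference of 0.63 ± 0.48 (SE).

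The E and F genes act in translation, and all 4 were above background on every array. Abce1, which splits ribosomes after termination, was at 7.944, 8.147 and 7.857 against 8.212 and 8.638. The groups did not overlap, with a gap of 0.064 between them, and the log2 difference was -0.44 ± 0.18 (SE; limma adjusted p = 0.440). Abcf3 was at 6.464, 6.653 and 6.385 against 6.132 and 6.091, higher on every array labelled knockout, with a difference of 0.39 ± 0.10 (SE; limma adjusted p = 0.237). Abcf1, a partner of translation initiation factor eIF2, had an interval of -0.13 to 0.06 around a difference of -0.03. Abcf2 differed by -0.13 ± 0.15 (SE) with overlapping groups.

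Subfamily G consists of half-size exporters of sterols and drugs. Abcg2, the breast cancer resistance protein that exports drugs, urate and porphyrins, was at 5.463, 5.057 and 4.654 on the arrays labelled knockout against 6.287 and 6.375. Every array labelled knockout was lower and below background, and both wild-type arrays were above it. The log2 difference was -1.27 ± 0.28 (SE; 95% interval -2.07 to -0.47; limma adjusted p = 0.210), the most negative among the members. With the arrays labelled knockout set to their background thresholds, the wild-type mean was 1.28-fold higher, again with no account of spread and for a gene picked by these values. RefSeq lists 3 starts for Abcg2, so no single promoter was shown for it.

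Abcg4, a sterol exporter best known from brain, was at 5.211, 4.568 and 4.596 against 4.568 and 4.047, with a difference of 0.48 ± 0.30 (SE). Abcg1, which moves cholesterol to lipoprotein particles, lay between 3.50 and 3.86 on all arrays and differed by 0.05. The intestinal and hepatic sterol exporters Abcg5 and Abcg8 lay between 2.67 and 3.28. Abcg3, found in rodents, lay between 2.02 and 2.21, around the antigenomic median.

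The plot of differences brings together 13 members above background on at least 1 array and the 3 others with an unadjusted p under 0.05. The 95% interval left out 0 for 10 of these 16, with 6 on the higher and 4 on the lower side. These are the genes with an unadjusted p under 0.05, which is the same test, and all of them were plotted by choice. The share among the 16 is therefore no result. Of all 50 members these are 6 and 4, where 5.36% and 8.30% of all genes did so. The genes of drug pumps and of subfamily C among them did not lie on one side. Abcc1 and both Abcb1 genes had positive differences, and Abcg2, Abcc4 and Abcc5 negative ones, that of Abcc5 being -0.02. The groups overlapped for Abcb1b, and Abcb1a and Abcc4 were below background on every array.

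**Figure D3:**
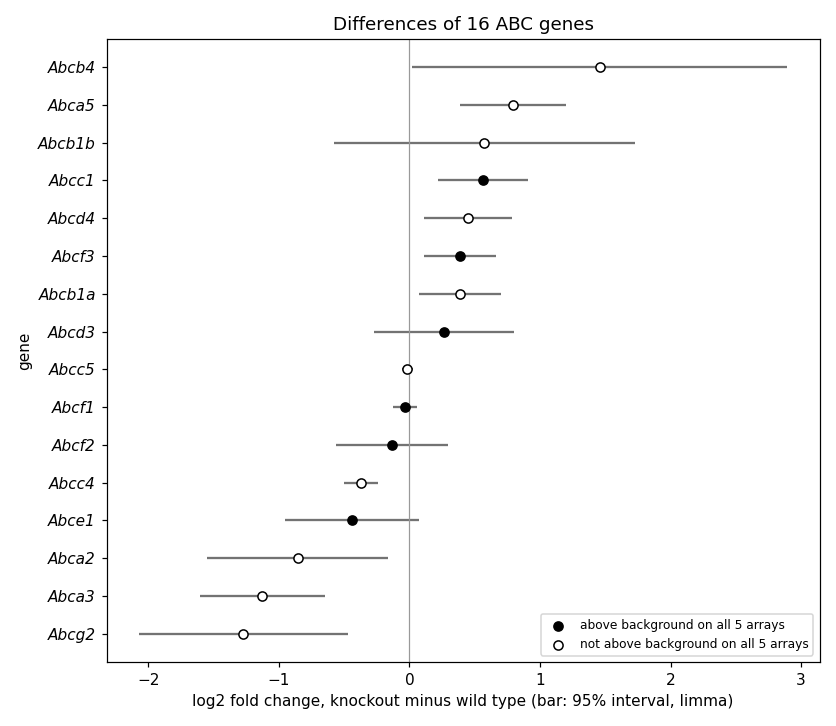
Log2 fold change, knockout minus wild type (x axis), with its 95% interval from limma for 16 ABC genes (y axis); filled points are genes above background on all 5 arrays. The differences run from -1.27 for Abcg2 to 1.46 for Abcb4, whose interval nearly reaches 0.

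Equal values on several arrays were common among these genes. Of the 50, 28 had at most 3 different values over the 5 arrays (56.0%, against 44.8% of all genes), 27 of them among the 36 below background everywhere. For such genes a small difference can have a small standard error.

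ABC proteins that carry other symbols were looked at beside the members. Tap2, a subunit of the peptide transporter of antigen presentation, was at 5.557, 5.458 and 5.405 on the arrays labelled knockout against 5.013 and 5.158, a log2 difference of 0.39 ± 0.07 (SE; limma adjusted p = 0.181). Its partner Tap1 lay on the other side at -0.44 ± 0.22 (SE), with the groups apart for both genes. Tap2 was above background on no array, and Tap1 on wild-type replicate 2 alone. The chloride channel gene Cftr lay between 1.88 and 2.06.

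Of 12 genes whose proteins work with ABC proteins, none passed limma's adjusted threshold, and at an unadjusted p under 0.05 the knockout label was higher for 3 and lower for 1 (5.36% and 8.30% over all genes). Scarb1, the lipoprotein receptor that also exchanges cholesterol with high-density lipoprotein, was at 7.584, 7.332 and 7.127 on the arrays labelled knockout against 5.610 and 5.888 (log2 difference 1.60 ± 0.18, SE; limma adjusted p = 0.104). Pex19, which escorts peroxisomal membrane proteins including the D transporters, had a difference of -0.93 ± 0.27 (SE). Tapbp, the tapasin gene, and Atp8b1, a canalicular phospholipid flippase, had differences of 0.33 and 0.23, the latter far below background.

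Among 13 nuclear receptors and factors known to control ABC genes, none passed the adjusted threshold, with 2 higher and 1 lower at an unadjusted p under 0.05 (5.36% and 8.30% over all genes). Pparg was at 6.638, 6.112 and 6.001 on the arrays labelled knockout against 4.300 and 4.237 (log2 difference 1.98 ± 0.23, SE; limma adjusted p = 0.106). Ahr had a difference of 1.05 ± 0.34 and Nfe2l2, which encodes NRF2, of -0.74 ± 0.13 (SE; limma adjusted p = 0.338 and 0.159). The xenobiotic and bile acid receptors Nr1i2, Nr1i3 and Nr1h4, which act on ABC genes in liver and gut, were below background on every array. The liver X receptor Nr1h2 was above background on all 5 arrays and Nr1h3 on none.

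Genes around Abcb4 had differences of both signs. Of 13 other genes whose annotated start lies within 1 Mb of that of Abcb4, none passed the adjusted threshold, and 1 was higher and 3 lower at an unadjusted p under 0.05 (5.36% and 8.30% over all genes). The higher one was Abcb1a, and the lower ones were Sri, Adam22 and Slc25a40, with log2 differences of -0.36, -1.23 and -0.78. The annotated start is the lower coordinate of a gene on either strand. Crot, a carnitine acyltransferase gene of peroxisomes, lies on the minus strand with its lower coordinate 72.3 kb beyond that of Abcb4. Crot was at 6.872, 7.019 and 6.082 against 7.198 and 7.255, a difference of -0.57 ± 0.34 (SE; limma adjusted p = 0.554). The 3 neighbouring B genes all had positive differences, though the groups overlapped for Abcb1b.

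**Figure D4:**
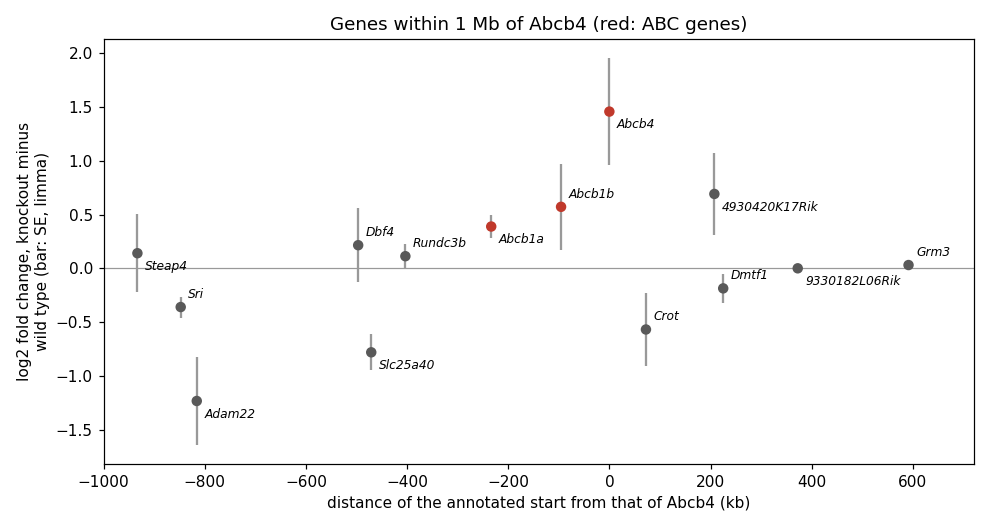
Log2 fold change, knockout minus wild type (y axis, bars are limma standard errors), against the distance in kb between a gene's annotated start and that of Abcb4 (x axis). The annotated start is the lower coordinate on either strand. The 3 ABC genes (red) lie at 0.39, 0.57 and 1.46, while Crot, the next start on the right, lies at -0.57.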

How the data were processed

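RNA of 5 fibroblast samples was amplified with a whole-transcriptome kit and hybridised to Affymetrix arrays, per the labels' protocols. The authors deposited log2 signals, 1 per probe set and array, made with Affymetrix Expression Console per the submitters' processing notes. No source used here gives its version, summary method or normalization. A second deposited table held the same values. Coordinates are those of the array annotation, taken as NCBIM37 because, where a description names a position in NCBIM37, it overlapped the annotated one in 2759 of 2955 rows.

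Of 28350 probe sets for genes, 24872 carried 1 symbol, 134 several and 3344 none. The brightest per symbol gave 21585 genes, whose median log2 signal lay between 4.27 and 4.33 on each array. The number of arrays limits the precision. Groups came from the labels. The test over all genes was limma's moderated linear model (version 3.58.1, R 4.3.3, no block, 3 residual degrees of freedom), with Benjamini-Hochberg adjustment at 0.05. The fit was tested on simulated data with 200 genes changed per run. It recovered 46.1% of changes of 1 log2 unit, 74.3% of 2 and 93.75% of 4. It called 5.9, 12.2 and 12.8 unchanged genes per run. A gene that is not called may thus still differ. Members and lists were chosen with earlier results of these data known. Per-array values are given for Abcb4, Abcb1a and Abcb1b, for members with an unadjusted p under 0.05 or a difference of at least 0.5, and for the 2 largest differences per subfamily; others were chosen after their values were seen. Values of 2 members are not reported here. Of the marker lists, Adgre1 and Map2 were not matched, none of 5 muscle or 4 neural markers was above background on any array, and of 5 leukocyte markers 1, Cd68, was above it on wild-type replicate 2 alone. Same-numbered arrays did not deviate together (correlations of -0.17 and -0.14). With 2 wild-type arrays, whose deviations mirror each other, these values are not independent and cannot settle whether the numbers pair the arrays.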

Additional observations from a re-analysis of the deposited data

How the results depend on the processing

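No ABC gene was called under 8 alternatives: array medians subtracted, dim genes left out, genes with equal values left out, the mean of all probe sets, trended or robust prior variances, array weights and the replicate block. Under these, 7 to 12 ABC genes had an unadjusted p under 0.05 and 0 to 2.08% of all genes were called. Not all of them could have changed the call. Taking the mean of all probe sets altered few members, as 52 probe sets stand for 50 genes. The replicate block called no gene of the array. A second quantile normalization gave 1, Abcc4, with 1.7% of all genes called against 0.301% as reported. Without replicate 1, 2 or 3 labelled knockout no ABC gene was called. These fits called 0, 2 and 0 of all genes, so they could hardly have shown a call. Leaving out a wild-type array keeps 1 in that group, which is then assumed to vary like the others, so no calls are given there. The Abcb4 difference stayed positive throughout, from 1.19 with the replicate block (limma adjusted p = 0.661) to 1.87 without replicate 2 labelled knockout. On leaving out arrays it ran from 1.19 to 1.87. It stayed short of the threshold in every fit that kept 2 wild-type arrays. The replicate block called 0 of all genes, against 65 as reported, so it ended every call over the array, and it gave 0 ABC genes. No wild-type array carries the number 1, so the block took up replicate 1 labelled knockout. Its differences were those found on leaving that array out (1.19 for Abcb4 in both), with fewer residual degrees of freedom than the main fit. The block is therefore no separate check on all arrays.

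The median difference of the ABC genes, -0.0033, moved to -0.017 on quantile normalization, where the median over all genes was -0.015. It was -0.038 with array medians subtracted (-0.034 over all genes), a step that shifts every gene's difference by the same amount. Without dim genes (28 ABC genes left) it was -0.029, beside -0.017 over all genes. Without genes of equal values it was -0.0065, beside 0.0081 over all genes. It was -0.0026 with array weights and 0 with the replicate block, and lay between -0.0065 and 0.0044 on leaving out arrays. The median over all genes was 0 in each of these last fits. The cause of the moves other than that on subtracting medians was not tested. The count of 6 genes above background on all arrays was 8 at the 90th percentile, 5 against the highest antigenomic probe set, 7 against intron probe sets, 31 at 1 over the antigenomic median, and 6 to 8 on leaving out arrays. Low signal limits what can be read from the 36 genes below background on every array.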
